A study of Mus musculus with 4 samples.

Results

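Stage 0 cells are the earliest precursors of thymic invariant natural killer T (iNKT) cells, and they still carry CD24, a surface glycoprotein of immature thymocytes. They made up 131 of 19647 cells that passed quality filters. The cells were selected on their counts of unique molecular identifiers (UMIs, 1 for each captured RNA molecule). A stage 0 cell had at least 2 UMIs of Cd24a, at least 1 of Itm2a, and at least 1 in any of Cldn10, Myb, Lef1 and Slc29a1. It had 0 UMIs of Nkg7, Dntt and Rag1. The filters kept cells with at least 500 and fewer than 4100 genes, at least 1000 UMIs and under 6% of UMIs from mitochondrial genes, and the 19516 kept cells that did not meet the rule are called the other cells.

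The 4 droplet libraries came from the thymi of 4 untreated mice, 1 mouse each, aged 8 to 9 weeks. A pair of them were C57BL/6 wildtype mice and a pair were Hivep3-/- mice on the C57BL/6 strain. Hivep3 encodes a large member of the ZAS family of zinc finger proteins, and the knockout affects every cell of the mouse and not iNKT cells alone. All 4 libraries shared an enrichment for cells that bind a PBS57-CD1d tetramer, a reagent of CD1d that carries a lipid antigen, and a sort that mixed CD44low and CD44high cells in equal numbers, so a share of cells is a share of that mix and not of the thymus. The sources used here do not give which part of Hivep3 the mutation removes, so the Hivep3 counts below do not check the genotype labels. The 4 libraries held 31381738 to 48291764 UMIs. Xist had 33 UMIs in the stage 0 cells of C57BL/6 replicate 1 and 0 in those of the other 3 libraries, whereas the Y-linked Eif2s3y had 0 there and 10 to 23 in the others. C57BL/6 replicate 1 thus stood apart in genes of sex. The study describes wildtype mice of these experiments as female in one place and as of both sexes in its methods, and C57BL/6 replicate 2 goes against the former. Without C57BL/6 replicate 1, which leaves libraries alike in these genes, the tests described below called 19 genes between genotypes within stage 0 cells and 17 against the other cells, where all 4 libraries gave 0 and 39. Each pair of libraries shared 18 to 43 kept cell barcodes, and no stage 0 barcode was shared.

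iNKT cells carry a nearly fixed T cell receptor (TCR) that sees lipids presented by CD1d. They arise from double positive thymocytes when that receptor binds CD1d on a neighbouring thymocyte. PLZF, the product of Zbtb16 and the factor behind the innate character of iNKT cells, is made downstream of Egr2, a target gene of the receptor signal. Stage 0 cells have passed this selection but have not yet divided, lost CD24 or gained CD44, and their descendants become iNKT1, iNKT2 or iNKT17 cells.

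The genes of the rule were high in stage 0 cells of all 4 libraries. Cd24a (chromosome 10, 43578284 to 43584265, plus strand, GRCm38) had 1102, 396, 584 and 526 UMIs per 1000000 UMIs of stage 0 cells (CPM) in C57BL/6 replicates 1 and 2 and Hivep3-/- replicates 1 and 2, the order used throughout. In the other cells it had 1.65 to 8.03 CPM. Itm2a (chromosome X, 107397099 to 107403376, minus strand), which encodes a membrane protein induced during thymic selection, had 1584, 1213, 2183 and 1909 CPM against 107 to 219. These values chose the cells and are given as a description only. Of the 131 cells, 129 had Lef1, 107 had Slc29a1, 106 had Myb and 80 had Cldn10. All 4 of these genes were present in 65 cells, 3 in 37 cells, 2 in 22 cells and 1 in 7 cells. Lef1 and Myb encode transcription factors of immature T cells, Slc29a1 a nucleoside transporter and Cldn10 a claudin.

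Markers of other cells bear on the name. Summed over 6 stage 0 markers, stage 0 cells had 3947 to 6283 CPM against 423 to 689 in the other cells, as the rule required. The double positive thymocyte markers Rag1, Rag2, Dntt and Ptcra were at 0, of which the rule set Rag1 and Dntt, and the 10 markers of that stage together had 172, 297, 116 and 159 CPM against 86.0, 76.4, 58.6 and 59.0 in the other cells, so the rest of that list was higher in stage 0 cells of each library. The iNKT1 markers Tbx21, Nkg7 and Klrb1c were at 0, of which the rule set Nkg7. The 11 iNKT1 markers together, Nkg7 among them, had 24.7 to 165 CPM against 2192 to 6199. Leaving out cells with Nkg7 can also lower the other iNKT1 markers, so these values are no independent evidence for the name. The 4 regulatory T cell markers together had 844, 322, 679 and 646 CPM against 72.8, 66.8, 166 and 212. Ikzf2, which early thymocytes share, made up 809, 309, 679 and 640 CPM of this, Il2ra and Ctla4 had UMIs in 3 and 2 cells, and Foxp3, which defines regulatory T cells, was at 0. Trdc, which defines gamma delta T cells, was at 0, as were all 5 myeloid and all 4 red cell markers, and 1 of 6 B cell markers (Cd79b) had UMIs, in 4 cells. Of the 4 epithelial markers Epcam alone was present, at 24.7 to 85.7 CPM in 34 cells. Cd44 had 1, 1, 0 and 2 UMIs. The 7 iNKT markers together had 5246 to 5710 CPM against 3106 to 4267 in the other cells. By these markers the cells carried the genes of the label together with some of double positive thymocytes, with an exception among the largest cells that is described with the genotypes.

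The rule removed 26 cells that had its positive part, 18 with Nkg7, 8 with Dntt and 4 with Rag1, some with more than 1 of these. Just outside the Cd24a threshold lay 168 cells with 1 Cd24a UMI that met the rest of the rule, and just inside lay 63 cells with 2. A further 1738 cells met the rest of the rule with 0 Cd24a UMIs. Per library, stage 0 cells just inside the threshold numbered 9, 8, 21 and 25, and cells just outside 33, 14, 50 and 71.

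Transcripts of TCR signal response and of early T cell factors were among those higher in stage 0 cells than in the other cells of the same library. Because the cells were chosen by their counts, these ratios are a description without a test. The genes below were ranked by the library with the smallest log2 ratio, after 0.5 UMI was added to each sum. Of 7884 genes with at least 10 CPM in either class, 22.5% were higher in stage 0 cells in all 4 libraries and 13.8% were lower in all 4, with a median log2 ratio of 0.34.

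**Figure D1:**
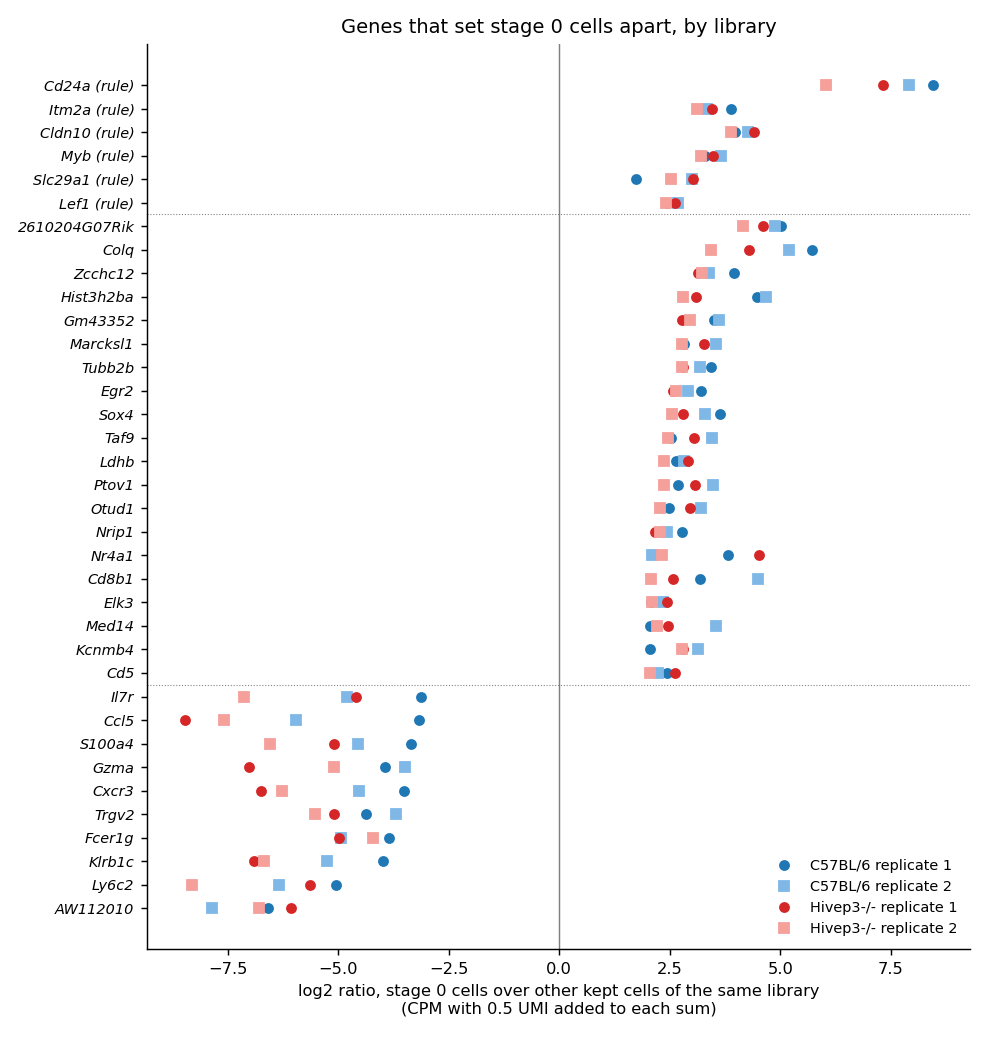
Log2 ratio of the level in stage 0 cells over the level in the other cells of the same library (horizontal axis), for 6 genes of the rule, the 20 highest and the 10 lowest genes by the library nearest to 0; each point is 1 library. All 4 points lie on the same side of 0 for each gene, and the low genes spread more widely because several were at 0 or a few UMIs.

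Outside the genes of the rule, the long noncoding transcript 2610204G07Rik had the highest smallest ratio. It stood at 103, 49.5, 197 and 113 CPM in stage 0 cells and at 1.89 to 8.14 CPM in the other cells, a log2 ratio of 4.16 to 5.03. Colq, which encodes the collagen tail of acetylcholinesterase, had 42.8 to 68.9 CPM against 1.47 to 4.11. Both were therefore rare among the other cells of each library. Both were carried by a minority of stage 0 cells, 48 and 34 of 131.

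Transcription factors of early T cells and of TCR signalling were among the 20 highest genes. Sox4, an HMG-box factor, had 465, 148, 285 and 278 CPM against 15.7 to 47.7 in the other cells. Egr2, induced at iNKT selection, had 155, 61.9, 376 and 116 CPM against 9.00 to 63.3, and Nr4a1, an orphan nuclear receptor and an immediate readout of TCR signal, had 895, 99.0, 1311 and 226 CPM against 24.5 to 64.0. Egr2 and Nr4a1 thus varied widely between stage 0 libraries, and replicate 1 was the higher of each genotype. Cd5, an inhibitory receptor whose level tracks TCR signal, had 1171, 718, 1174 and 539 CPM against 130 to 217, with UMIs in 124 of 131 cells.

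Over the whole list of 24 TCR signal response genes compared, 10 were higher in all 4 libraries and 4 were lower, with a median log2 ratio of 1.02. Of 25 early T cell transcription factors, 13 were higher and 5 were lower (median 1.06). Ikzf2, which encodes Helios, had 309 to 809 CPM against 61.4 to 206, and Tox, an HMG-box factor needed by several thymic lineages, had 470 to 637 against 87.7 to 140. Ikzf2 and Tox thus exceeded the other cells in every library. Egr1 had 210 to 658 CPM against 43.3 to 113, and Id3, an inhibitor of E proteins, had 413 to 960 against 203 to 434, a log2 ratio of 0.38 to 1.16.

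Receptor chains and coreceptors were next. Of 24 TCR and CD3 genes compared, 12 were higher in all 4 libraries and 0 were lower, but by a median of only 0.31. Cd3e had 1412 to 2046 CPM against 1046 to 1614. Trbc2, the second constant gene of the TCR beta chain, had 1222, 1794, 1888 and 1692 CPM against 337 to 626, and Trac had 103 to 309 against 120 to 253 with ratios on both sides of 0. Reads of Trbc1 and Trbc2 can be split between these near-identical genes, so the ratio of either is uncertain. The Cd8b1 coreceptor chain of double positive cells had 51.7, 111, 38.7 and 36.7 CPM against 5.23 to 9.03, from 18 cells, and Cd8a was present in 23. Of 10 double positive thymocyte genes compared, 6 were higher in all 4 libraries and 0 were lower.

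Costimulatory and inhibitory receptors moved in both directions. Of 17 compared, 8 were higher in all 4 libraries and 3 were lower (median log2 ratio 0.95). Cd28 had 396 to 928 CPM against 225 to 334 and Cd27 had 487 to 911 against 129 to 228. Pdcd1, which encodes the inhibitory receptor PD-1, had 322 to 679 against 119 to 168. All 3 were higher in every library by at least 0.84 on the log2 scale. Of 9 SLAM receptors and adaptors, which transmit the signal between thymocytes at iNKT selection, 4 were higher and 3 lower, and Slamf6 had 258 to 539 CPM against 72.7 to 113.

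Genes of mature iNKT cells and of tissue homing were low. All 15 iNKT1 markers compared were lower in all 4 libraries, with a median log2 ratio of -4.57, although Nkg7 was set to 0 by the rule. Il7r, the receptor for interleukin 7, had 51.7, 12.4, 31.6 and 3.06 CPM against 519 to 804. Cxcr3, a chemokine receptor of iNKT1 cells, was at 0 in all 4 libraries against 98.8 to 188 CPM, and the interferon-induced transcript AW112010 had 0, 0, 21.1 and 9.18 against 830 to 1538. Ccl5 and Gzma, both products of late iNKT1 cells, had 4 and 2 stage 0 cells with UMIs. Of 17 chemokine receptors and egress genes, 12 were lower in all 4 libraries and 2 were higher. In addition 3 of 5 iNKT17 markers, 5 of 12 iNKT2 and precursor markers, 6 of 14 cytokine receptors and 9 of 14 brakes of cytokine signalling were lower in all 4.

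The other lists covered survival, gene regulation, division and markers of other cells. Of 12 Bcl2 family genes 4 were higher and 3 lower, and Bcl2 itself had 165 to 413 CPM against 100 to 199. Of 12 genes of the microRNA machinery 0 were higher and 0 lower in all 4 libraries. Of 13 histone deacetylases and corepressors 3 (23.1%) were higher and 0 lower (median 0.73), where 22.5% of all genes compared were higher. Among the 3 was Hdac7, a deacetylase of thymocytes, with 86.1, 86.6, 207 and 162 CPM against 33.3 to 80.1. Of 18 cell cycle genes 3 (16.7%) were lower and 0 higher, where 13.8% of all genes compared were lower. Ribosomal protein genes took 18.6% to 24.7% of UMIs in stage 0 cells and 26.7% to 28.6% in the other cells. Of the gamma delta T list all 3 genes compared were lower (median -4.15). The gene compared of the regulatory T list, Capg, was lower (-3.03) and that of the epithelial list, Epcam, was higher (2.19). Of 17 genes that the study names in stage 0 cells 9 were higher and 4 lower, in a list that was picked from these libraries and gives no independent evidence.

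Pooled over libraries, levels of several genes differed by Cd24a count. Over the 4 libraries, cells with 5 or more Cd24a UMIs (24 cells: 4, 0, 11 and 9) were set beside cells with 2 to 4 (107 cells: 15, 13, 35 and 44). Nr4a1 had 1087 CPM against 612, Cd5 had 1552 against 738, Ikzf2 had 1324 against 524 and Cldn10 had 563 against 368. Plac8 and Zbtb16 were at 0 in the 24 cells of highest Cd24a and had 94.0 and 47.8 CPM in the 107 others. All 10 cells of more than 15000 UMIs, a limit set after the data were seen, were among the 107, and they held 56 of the 61 Plac8 and 24 of the 31 Zbtb16 UMIs. In the 97 cells without them Plac8 had 10.5 CPM and Zbtb16 14.7, while Nr4a1 had 814, Cd5 had 900, Ikzf2 had 615 and Cldn10 had 466. The differences in Plac8 and Zbtb16 were thus carried by these few cells. The 168 cells just outside the threshold had 317 CPM of Nr4a1, 489 of Cd5 and 287 of Cldn10, and the 1738 cells with no Cd24a UMI had 85.2, 309 and 75.8 CPM. Those 1738 cells had more of the genes of later stages, with 410 CPM of Id2 against 78.2 just outside and 2301 of Cd52 against 635. Egr2 was highest just outside the threshold, at 260 CPM, and had 158 CPM in the cells of highest Cd24a. C57BL/6 replicate 2 gave no cell with 5 or more Cd24a UMIs, and the values are descriptions over pooled cells without a test. Median depth was 3030.5 UMIs in the cells with 5 or more Cd24a UMIs and 8730.5 in those with 0.

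**Figure D2:**
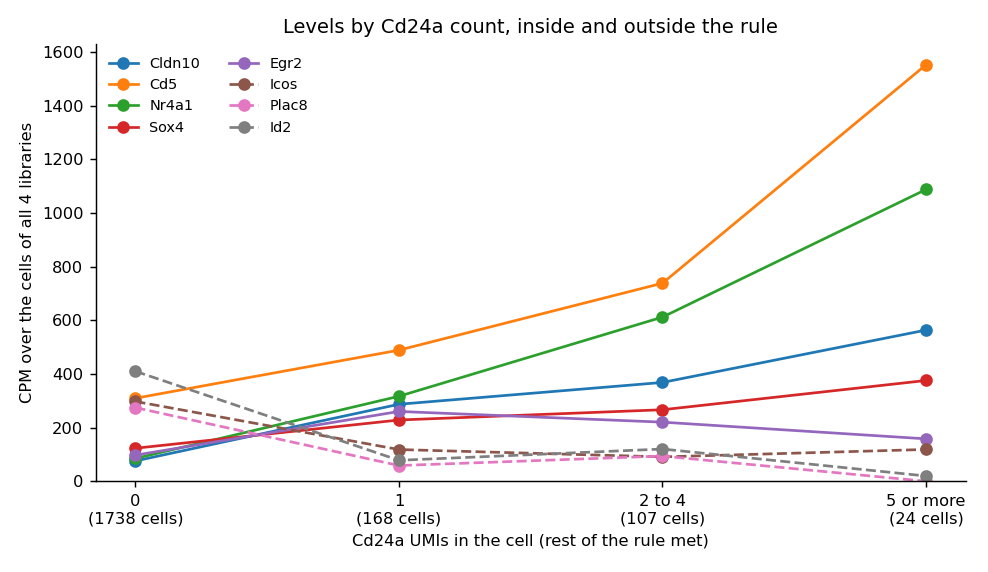
Level of 8 genes (CPM over the cells of all 4 libraries, vertical axis) in cells that met the rest of the rule, by their Cd24a UMI count (horizontal axis, with the number of cells). Cd5, Nr4a1, Cldn10 and Sox4 stand highest at 5 or more UMIs, Egr2 at 1 UMI, and Id2, Icos and Plac8 (broken lines) stand highest at 0 UMIs.

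Cells split by Itm2a differed in other genes. The 88 cells with at least 5 Itm2a UMIs had 476 CPM of Cldn10, 1050 of Slc29a1 and 248 of Egr2, and the 43 cells with fewer had 192, 617 and 122. Id2, Ccr9, Cd8a and Cd52 were lower in the 88 cells, at 44.8, 41.0, 35.4 and 351 CPM against 262, 266, 117 and 1028. Of the 56 Id2 UMIs of the 43 cells, 54 lay in 4 cells of more than 15000 UMIs, and 177 of 220 Cd52 UMIs lay in 5 such cells. Without cells above that limit, 83 and 38 cells were left, with 13.2 CPM of Id2 against 16.2, 172 of Cd52 against 347, 48.4 of Ccr9 against 299 and 35.2 of Cd8a against 162. The Id2 levels were then close, from 6 and 2 UMIs. Cldn10 had 528 against 315, Slc29a1 1154 against 905 and Egr2 277 against 186. At least 5 Itm2a UMIs were found in 7 of 19, 6 of 13, 34 of 46 and 41 of 53 stage 0 cells of the 4 libraries. Median Itm2a counts per cell were 2, 4, 11.5 and 9 UMIs, beside median depths of 1896, 3392, 4257 and 4077 UMIs per stage 0 cell. The part of depth in this difference was not tested. Most of the 88 cells were Hivep3-/- cells, and the levels above were pooled over both genotypes. In these pooled values the Itm2a count and the genotype cannot be told apart.

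A larger share of the Hivep3-/- libraries was stage 0 cells. They numbered 19 of 7231 and 13 of 3651 kept cells in C57BL/6, and 46 of 4598 and 53 of 4167 in Hivep3-/-. These are shares of 0.263% (exact binomial 95% interval 0.158 to 0.410), 0.356% (0.190 to 0.608), 1.0% (0.733 to 1.33) and 1.27% (0.954 to 1.66). Each Hivep3-/- library exceeded each C57BL/6 library, and the intervals, which cover counting error only, did not overlap between genotypes. The means were 0.309% ± 0.0660 and 1.14% ± 0.192 (SD, n = 2), a difference of 0.827 percentage points. A two-sided exact permutation test over libraries gave p = 0.33, the smallest that 2 against 2 libraries allow.

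**Figure D3:**
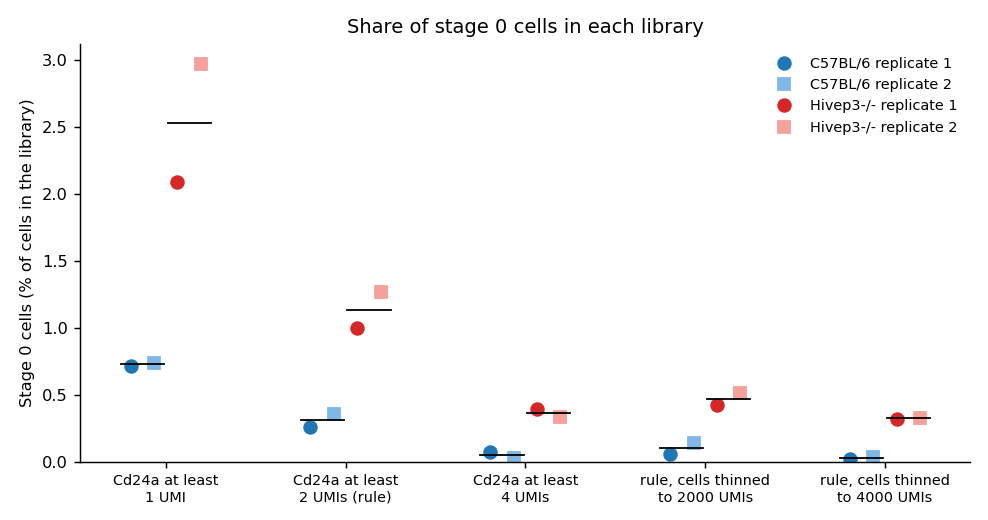
Stage 0 cells as a percent of the cells of each library (vertical axis) under the rule, under 2 other Cd24a thresholds, and after cells were thinned to a fixed number of UMIs; points are libraries and black lines genotype means. Both Hivep3-/- libraries lie above both C57BL/6 libraries in all 5 settings.

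The kept cells of Hivep3-/- were deeper, with medians of 6845 and 6502.5 UMIs in the other cells against 4605.5 and 5269 in C57BL/6, and a rule on UMI counts selects more deep cells. The rule was therefore applied again after each cell was thinned to 2000 UMIs, which left out 502, 91, 82 and 75 shallower cells. Among these were 12 of the 19, 0 of the 13, 1 of the 46 and 7 of the 53 stage 0 cells. The loss was thus uneven and largest in C57BL/6 replicate 1, so the thinned shares do not fully remove depth. It then found 4, 5, 19 and 21 cells, or 0.0594%, 0.140%, 0.421% and 0.513%. The genotypes still did not overlap, with means of 0.0999% and 0.467%. After thinning to 4000 UMIs, with 3007, 902, 518 and 517 cells left out, it found 1, 1, 13 and 12 cells, and the means were 0.0300% and 0.324%. Stage 0 cells among those left out numbered 16, 8, 20 and 26. With at least 4 Cd24a UMIs the means were 0.0483% and 0.364%, and with at least 1 they were 0.729% and 2.53%. The sort fixed the ratio of CD44low to CD44high cells. A share can therefore move through the loss of other CD44low cells as well as through more stage 0 cells. The shares of these libraries alone cannot tell these apart. The study also counted cells by flow cytometry. It reports no significant genotype difference in the number of the earliest precursors, and significantly fewer cells at every later stage in the knockout.

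Gene levels were then compared between genotypes within stage 0 cells. UMIs were summed over the stage 0 cells of each library and tested with edgeR's quasi-likelihood F test, with p adjusted by Benjamini and Hochberg's method over all genes tested. The sums were small: 58079 and 80824 UMIs in C57BL/6 and 284408 and 326809 in Hivep3-/-. Of 2975 genes 0 (0%) were called at an adjusted p under 0.05, while 181 had an unadjusted p under 0.05 and DESeq2 called 7, 1 higher and 6 lower in Hivep3-/-. These p-values measure the spread between 2 mice of each genotype. Because 0 genes were called, the named differences below are values, not changes, and genes chosen for their small p were picked after their values were seen.

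The smallest adjusted p, 0.0990, was shared by Id2, Cd52, Plac8 and Ly6e. Id2 (chromosome 12, 25093799 to 25097140, minus strand), an inhibitor of E proteins, had 310, 445, 77.4 and 12.2 CPM (log2 -3.23, SE 0.54). Cd52 (chromosome 4, 134082448 to 134095082, minus strand), a small surface glycoprotein of lymphocytes, had 2428, 1225, 447 and 125 CPM (log2 -2.77, SE 0.48). Plac8 had 482, 198, 52.7 and 6.12 CPM (log2 -3.60, SE 0.64), and Ly6e had 1429, 1089, 541 and 373 CPM (log2 -1.55, SE 0.28). The C57BL/6 libraries were the higher ones for each of these, with no overlap between genotypes. With 2 libraries of each genotype, a gene without a difference lacks overlap by chance with a probability of 0.33, and these genes were picked by their small p. Their lack of overlap is therefore a description and not evidence. Leaving out any 1 library gave a call for Id2, Cd52 and Plac8, with the lone library of a genotype assumed to vary like the others. Their values then ran from -2.34 (without Hivep3-/- replicate 2) to -4.88 (without Hivep3-/- replicate 1) for Id2, from -2.06 to -3.84 for Cd52 and from -2.67 to -5.58 for Plac8, with the same libraries at both ends. Ly6e was called without each library except Hivep3-/- replicate 2 (-1.25 there). Over all settings Id2, Cd52, Plac8 and Ly6e were called in 8, 8, 7 and 6. Without cells that had a UMI of Mki67, Top2a or Ccnb2, Id2 was at -0.82 and Cd52 at -1.48, not called. This left 18 of 19 and 12 of 13 C57BL/6 cells. The cell taken out of each library was its largest, with 17138 and 22986 UMIs. These cells held 18 and 27 UMIs of Id2 and 105 and 52 of Cd52, so this setting does not separate division from the largest cells. Ly6e belongs to a family of similar genes, and its counts can hold reads of relatives.

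Most of the Id2, Plac8 and Cd52 UMIs came from the largest cells. Cells of more than 15000 UMIs numbered 1, 2, 3 and 4 and held 29.5%, 47.2%, 17.3% and 20.7% of the stage 0 UMIs of their library. In C57BL/6 they held all 18 and 36 UMIs of Id2, all 28 and 16 of Plac8, all 4 and 11 of Il4 and all 5 and 5 of Zbtb16, and 105 of 141 and 77 of 99 of Cd52. These are genes of iNKT2 and later cells, and the cells that held them had 2 UMIs of Cd24a and 5 of Itm2a in replicate 1, and 5 and 3 in the 2 cells of replicate 2 together. They also met the rule through Lef1, with 12 UMIs in the cell of replicate 1 and 4 and 12 in those of replicate 2. In Hivep3-/- replicate 1 such cells held 18 of 22 Id2 UMIs, and in replicate 2 they held 0 of 4. The summed CPM of the 9 iNKT2 markers was 1705, 1621, 812 and 906 in all stage 0 cells and 855, 1405, 736 and 884 without the largest cells. Whether any of these cells were doublets was not tested.

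**Figure D4:**
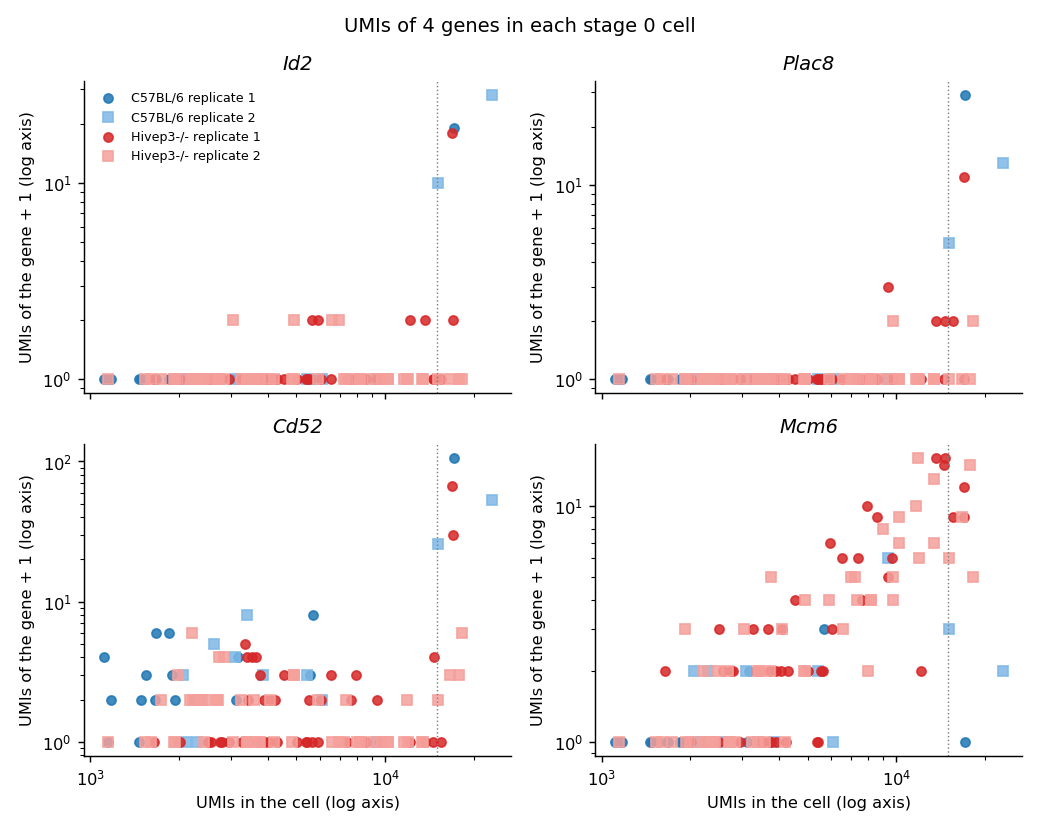
UMIs of a gene plus 1 (vertical, log axis) against total UMIs of the cell (horizontal, log axis) for each of the 131 stage 0 cells, by library; the dotted line is 15000 UMIs. Id2 and Plac8 counts above 10 lie in cells to the right of the line, all C57BL/6 cells left of it are at 0 for both genes, and Mcm6 is spread over many Hivep3-/- cells.

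Without the largest cells, the difference in Cd52 was smaller and remained in the same direction. Its CPM was 879, 515, 136 and 120, and the log2 difference was -2.44 with an adjusted p of 0.31 among 2470 genes. Thinned to 2000 UMIs, 7 of 7, 8 of 13, 11 of 45 and 15 of 46 cells had a Cd52 UMI, against 91.1% to 98.2% of the other cells. Ly6e was at -0.82, and Id2 and Plac8 could not be compared because C57BL/6 had 0 UMIs of either. With all stage 0 cells kept, 8 of the 12 iNKT2 and precursor markers passed the low-count filter and were tested. All 8 were lower in Hivep3-/- by value, 6 at an unadjusted p under 0.05, with a median of -1.79 against 0.00 over all genes tested. Of 2967 tested genes outside the rule, 1474 were lower, 91 of them at such a p. The filter can admit a gene through the C57BL/6 libraries alone, as for Plac8, so the direction of the 8 is a description and not evidence. Without the largest cells the summed iNKT2 markers given above overlapped between genotypes. Icos, a costimulatory receptor of that list, had 293, 210, 91.4 and 33.7 CPM, and 11 of its 17 UMIs in each C57BL/6 library were in the largest cells. Its log2 difference of -2.10 was called without C57BL/6 replicate 1 (-1.90), C57BL/6 replicate 2 (-2.30) or Hivep3-/- replicate 1 (-2.86).

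Genes of DNA replication had higher values in Hivep3-/- stage 0 cells. Mcm6 (chromosome 1, 128331590 to 128359664, minus strand), a subunit of the helicase that unwinds DNA at replication origins, had 68.9, 148, 506 and 459 CPM (log2 1.98, SE 0.38, adjusted p 0.114). Mcm5 had 17.2, 37.1, 141 and 236 CPM (2.61, SE 0.61, adjusted p 0.27), and Mcm3 had 17.2, 61.9, 176 and 177 (1.93, SE 0.52, adjusted p 0.41). The genotypes did not overlap for these 3 subunits of 1 complex. With 2 libraries of each genotype, a gene without a difference lacks overlap with a probability of 0.33. The lack of overlap is therefore a description and not evidence. Of the 20 cell cycle genes listed, 8 were tested and 0 were called, 7 were higher by value and 6 of them had an unadjusted p under 0.05, as did the 1 lower gene, Ccnd3 (median log2 1.80). Of 2967 tested genes outside the rule, 1493 were higher, 88 of them at such a p. The low-count filter can admit a gene through the Hivep3-/- libraries alone, as for Mcm5, so the direction of the tested genes is a description and not evidence.

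Leaving out a library gave a call for Mcm6 without C57BL/6 replicate 2 (2.75), Hivep3-/- replicate 1 (2.0) or Hivep3-/- replicate 2 (2.10), and for Mcm5 without C57BL/6 replicate 2 (3.38) or Hivep3-/- replicate 1 (3.0). Mcm3 was at 3.27 without C57BL/6 replicate 2, not called.

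Mcm6 was spread over many Hivep3-/- cells, Mcm5 less so. Mcm6 was present in 3, 7, 35 and 35 stage 0 cells, with at most 15 UMIs in a cell. Thinned to 2000 UMIs, 1 of 7, 4 of 13, 25 of 45 and 25 of 46 cells had a UMI of it, against 17.6% to 23.6% of the other cells. Of the 40 Mcm5 UMIs of Hivep3-/- replicate 1, 30 were in its 6 largest cells, as were 32 of 77 in Hivep3-/- replicate 2. Thinned to 2000 UMIs, 14.3%, 7.69%, 15.6% and 37.0% of stage 0 cells had Mcm5, so C57BL/6 replicate 1 (1 of 7 cells) and Hivep3-/- replicate 1 (7 of 45) were close, and 1 of 7, 0 of 13, 9 of 45 and 15 of 46 had Mcm3. Without cells of more than 15000 UMIs the CPM of Mcm6 was 97.7, 211, 498 and 459, a log2 difference of 1.60. With every stage 0 cell thinned to 1000 UMIs the Mcm6 difference was 1.41. It was in the same direction in both settings and not called in either.

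Cells in division were rare by the 3 markers Mki67, Top2a and Ccnb2. After thinning to 2000 UMIs, 0 of 7, 0 of 13, 2 of 45 and 4 of 46 stage 0 cells had a UMI of any of them, or 0%, 0%, 4.44% and 8.70%. The other cells had 10.5%, 7.50%, 3.67% and 7.22%. The difference between genotypes was 6.57 percentage points in the direction of Hivep3-/- (exact permutation p = 0.33), with few cells behind it, and thinned to 4000 UMIs it was 1.32 with libraries that overlapped (exact permutation p = 1). A difference in dividing stage 0 cells was not detectable at this depth.

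The genes that the study names in stage 0 cells gave 0 calls among 17 tested, with 2 higher and 6 lower at an unadjusted p under 0.05. Of 2967 tested genes outside the rule, 88 were higher and 91 lower at such a p. Among the 6 were Id2, Plac8 and Cd52, whose C57BL/6 UMIs lay mostly in the largest cells. The study took stage 0 cells from a cluster with many more C57BL/6 cells than the 32 here, and the test it describes is a Wilcoxon test over cells. Here sums of 2 libraries of each genotype were tested, so the 0 calls do not decide on its list. Hivep3 (chromosome 4, 119733784 to 120138045, plus strand) had 138, 173, 612 and 233 CPM in stage 0 cells and 38.4, 36.0, 97.1 and 66.2 in the other cells. Its log2 difference within stage 0 cells was 1.30 (SE 0.49, adjusted p 0.69), so the RNA was detected in Hivep3-/- stage 0 cells. Without Hivep3-/- replicate 1 the difference was 0.55, and without Hivep3-/- replicate 2 it was 1.91 and called (adjusted p 0.029). Dusp1, a phosphatase of MAP kinases, had 448, 111, 63.3 and 113 CPM, and the genotypes overlapped. Its log2 difference of -1.63 was called without C57BL/6 replicate 2 (-2.36) or Hivep3-/- replicate 2 (-2.10) and was -0.44 without C57BL/6 replicate 1. Zbtb16 had 86.1, 61.9, 56.3 and 15.3 CPM from 12 cells. Egr2 had 108 ± 65.8 and 246 ± 184 CPM, and Nr4a1 497 ± 563 and 769 ± 767 (SD, n = 2), with spreads between replicates as large as the differences. Nr4a1 was called without C57BL/6 replicate 1 (2.79) and was at -1.06 without Hivep3-/- replicate 1. Trbc1 had 224, 384, 781 and 413 CPM, a log2 difference of 0.83 (adjusted p 0.74). Trbc2, Trac, Cd247, Egr1, Id3 and Ikzf3 differed by at most 0.68 on the log2 scale with adjusted p of 0.74 or more, and Hdac7 by 0.99 (SE 0.40, adjusted p 0.69).

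Drosha, the nuclear nuclease that starts microRNA processing, had 68.9, 124, 24.6 and 24.5 CPM in stage 0 cells. Log2 of the ratio was -2.09 (SE 0.67, adjusted p 0.54), from 14 UMIs in C57BL/6 and 15 in Hivep3-/-. In the other cells Drosha had 208, 179, 23.5 and 27.6 CPM, a log2 difference of -3.01 (adjusted p 0.0032). The term that compares the 2 differences was 1.01 with an adjusted p of 0.99, so they were not shown to differ.

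Whether a genotype difference in stage 0 cells differed from that in the other cells of the same mice was tested next. The other cells are a mix of later subsets, and the study reports that the proportions of some of these differ between genotypes. The part of this mix in the results below was not tested. Sums of stage 0 and other cells entered 1 model, in which each library was a blocking factor. It gave 39 of 11446 genes (0.341%) at an adjusted p under 0.05, 19 with a higher and 20 with a lower difference in stage 0 cells. One of the 39 was Cd24a, which the rule used. The median of this term over all genes was 0.31 on the log2 scale, so each value is read against that shift. Of 20 cell cycle genes 6 were called, all higher: Mcm3, Mcm5, Mcm6, Top2a, Ube2c and Rrm2. The last 3 had 1 UMI each in C57BL/6 stage 0 cells. Without cells of more than 15000 UMIs 18 genes were called, 8 of them among the 39.

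**Figure D5:**
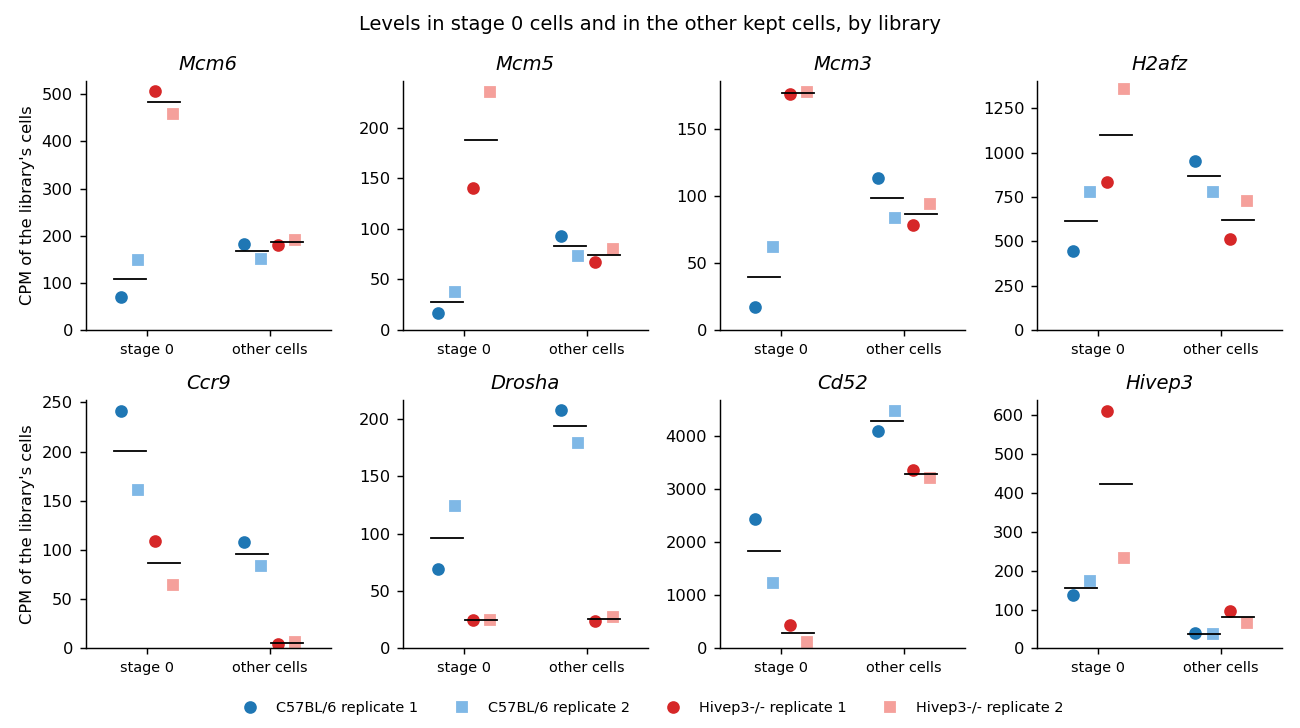
CPM (vertical axis, from 0) of 8 genes in stage 0 cells and in the other cells, by library; black lines are genotype means. In stage 0 cells Mcm6, Mcm5 and Mcm3 are higher in both Hivep3-/- libraries and the other cells of the genotypes lie close together, while Ccr9 is near 0 in the other cells of Hivep3-/- and not in their stage 0 cells.

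Ccr9 gave the smallest adjusted p among genes with a higher term. It lies on chromosome 9 (123678439 to 123784330, plus strand) and encodes the receptor for the thymic chemokine CCL25. In the other cells it had 108 and 83.7 CPM in C57BL/6 and 4.43 and 6.31 in Hivep3-/-, where it fell by 4.24 (log2, SE 0.25, adjusted p 0.0032). In stage 0 cells it had 241, 161, 109 and 64.3 CPM, a log2 difference of -1.28 (SE 0.41, adjusted p 0.54). The term was 3.09 (SE 0.39, adjusted p 2.3e-11) and was called in all 10 alternatives. It was present in 8, 3, 14 and 9 stage 0 cells, with 27 UMIs in C57BL/6 and 52 in Hivep3-/-, so the stage 0 levels rest on few cells.

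The replication genes followed. The term for Mcm6 was 2.04 (SE 0.37, adjusted p 8.5e-05), for Mcm5 2.99 (SE 0.58) and for Mcm3 2.34 (SE 0.53). These terms were positive in all 10 alternatives and called in 5, 5 and 3 of them. Without C57BL/6 replicate 1 none of the 3 was called (1.45, 2.39 and 1.53), without Hivep3-/- replicate 1 Mcm6 and Mcm3 were not (1.90 and 2.18), and without Hivep3-/- replicate 2 Mcm5 and Mcm3 were not (2.69 and 2.45). In the other cells Mcm6 had 183, 150, 181 and 191 CPM, a log2 difference of 0.07. For Mcm6, stage 0 cells of C57BL/6 replicate 1 were below the other cells of their library, those of replicate 2 were level with them, and those of both Hivep3-/- libraries were above. H2afz, a histone variant, had 448, 779, 837 and 1359 CPM in stage 0 cells and 952, 780, 512 and 728 in the other cells (term 1.40, but 0.87 without C57BL/6 replicate 1 and 1.31 without Hivep3-/- replicate 2, neither called). Runx1, a factor of early T cells, had 172, 49.5, 214 and 211 CPM against 75.4, 56.3, 45.8 and 44.2 (term 1.74, adjusted p 0.011). It was called in 3 of 10 alternatives and not without C57BL/6 replicate 2 (1.24), Hivep3-/- replicate 1 (1.72) or Hivep3-/- replicate 2 (1.71), nor without cells of more than 15000 UMIs (1.58). Pclaf, a partner of the replication clamp, had a term of 3.50 from 1, 1, 17 and 40 UMIs, and the 17 of Hivep3-/- replicate 1 were in 1 cell. Its ratio of Hivep3-/- to C57BL/6 was 6.48 with a counting interval of 1.71 to 54.8, and its call was lost without C57BL/6 replicate 1 (3.54), C57BL/6 replicate 2 (3.41) or Hivep3-/- replicate 1 (3.27).

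Several genes with a lower term were held by few cells. Cd52 (term -2.20, SE 0.26) and Id2 (-2.68, SE 0.39) were described above, and in the other cells they differed by -0.47 and -0.44, without a call. Without Hivep3-/- replicate 2 their terms were -1.48 and -1.95, and without cells that had a UMI of Mki67, Top2a or Ccnb2 they were -0.97 and -0.13, not called in either case. Taking out cells with those markers removed the largest stage 0 cell of each C57BL/6 library, as described above. Trbv1 had 57, 19, 60 and 25 UMIs in 5, 2, 5 and 3 stage 0 cells (term -2.34), and Trbv13-3 had 18, 28, 40 and 0 UMIs in 5, 3, 4 and 0 cells (term -2.48). Without Hivep3-/- replicate 2 the terms were -1.75 and -1.48, and without C57BL/6 replicate 1 that of Trbv1 was -1.24, none of them called. Each T cell usually carries 1 productive beta chain, so a count of a segment follows how many cells use it, and reads of Trbv13-1, Trbv13-2 and Trbv13-3 can be split between these similar segments. Igfbp4 had a term of -2.33, and 39 of its 41 C57BL/6 UMIs were in 1 cell. Without C57BL/6 replicate 2, the library of that cell, the term was 1.15, and leaving out Hivep3-/- replicate 2 gave -0.76, neither called. Inpp4b had 2, 8, 0 and 1 UMIs (term -5.20), a ratio of Hivep3-/- to C57BL/6 of 0.0227 with a counting interval of 0.000524 to 0.160, and it was not called without C57BL/6 replicate 2 (-4.19) or Hivep3-/- replicate 1 (-4.02). Myo6, Cd74 and Cxcl10 were also called, with 16 of 16, 12 of 14 and 5 of 5 C57BL/6 UMIs in a single cell.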

How the data were processed

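The authors aligned and counted the reads with Cell Ranger 3.1.0 against mm10, and the submitters' processing notes also name Seurat 3.1.4. The deposited matrices hold raw UMI counts per gene and cell for 4 libraries prepared with a 10x Genomics 5′ kit. Cells with at least 500 and fewer than 4100 genes, at least 1000 UMIs and under 6% mitochondrial UMIs were kept. Stage 0 cells, and the gene lists, were chosen with earlier results of these data known. No doublet caller was run. The gene ceiling and the excluded genes limit doublets, and alternatives left out the 5% of stage 0 cells with most UMIs or cells above 15000 UMIs. Counts summed per library were tested in R 4.3.3 with edgeR 4.0.16 (filterByExpr, TMM, glmQLFit, glmQLFTest), with DESeq2 1.42.0 as an alternative, and tested first on simulated data. CPM is per 1000000 UMIs of the class, without TMM. Thinning drew a fixed number of UMIs from each cell with a fixed seed. Tables and exact tests used Python 3.11.15, pandas 2.3.3 and scipy 1.17.1. Gene positions are those of GENCODE vM21 on GRCm38.

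Named genes were those of the rule, Hivep3, 17 genes that the study names in stage 0 cells, up to 12 called rises and falls within stage 0 cells, the 6 interaction genes of smallest p in each direction, the 20 highest and 10 lowest stage 0 ratios, and from each list its called members or its 4 highest. Other genes are marked as chosen after their values were seen.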

Additional observations from a re-analysis of the deposited data

Results flagged for a closer look

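The edgeR test, adjusted over 11446 genes, called 12 genes reported here for a genotype difference in stage 0 cells unlike that in the other cells of the same mice. Terms are on the log2 scale. Higher terms were those of Ccr9 (3.09), Mcm6 (2.04), H2afz (1.40), Mcm5 (2.99), Pclaf (3.50) and Mcm3 (2.34). Lower terms were those of Cd52 (-2.20), Trbv1 (-2.34), Id2 (-2.68), Trbv13-3 (-2.48), Igfbp4 (-2.33) and Inpp4b (-5.20). For Ccr9 the other cells of Hivep3-/- were near 0, while stage 0 cells kept 109 and 64.3 CPM. All C57BL/6 UMIs of Id2 were in 3 cells, and 39 of 41 of Igfbp4 in 1 cell. Without cells of more than 15000 UMIs, Ccr9, Mcm6, H2afz, Cd52, Trbv1 and Trbv13-3 were still called. Of the 12 genes, Ccr9 alone was also called by DESeq2, and it alone with the replicate block.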

How the results depend on the processing

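The difference in the stage 0 share kept its direction in all 11 alternatives (0.294 to 1.80 percentage points; 0.691 to 0.962 leaving out a library). With 0 genes called within stage 0 cells, other settings called 7 (DESeq2), 34 (no low-count filter), 1 (rule applied after thinning to 2000 UMIs), 1 (without the cells of most UMIs), and, in settings added after the data were seen, 6 (Cd24a at least 1 UMI) and 1 (at least 5 Itm2a UMIs). With the replicate block 9 were called. Leaving out a library gave 9 to 35: 19 without C57BL/6 replicate 1, 35 without C57BL/6 replicate 2, 18 without Hivep3-/- replicate 1 and 9 without Hivep3-/- replicate 2. Against the other cells 39 genes were called. DESeq2 called 3 (2 of them among the 39), the replicate block 1 (1), cells of at most 15000 UMIs 18 (8), and no cycling cells 9 (7). Leaving out a library gave 7 to 60: 17 without C57BL/6 replicate 1, 60 without C57BL/6 replicate 2, 25 without Hivep3-/- replicate 1 and 7 without Hivep3-/- replicate 2. Igfbp4 reversed to 0.22 (at most 15000 UMIs), 1.15 (without C57BL/6 replicate 2; -3.49 to 1.15 leaving out a library) and 2.37 (no cycling cells), and Plac8 to 1.40 (no cycling cells). In C57BL/6 the setting without cycling cells left out the largest stage 0 cell of each library, and these held 28 of 28 and 12 of 16 Plac8 UMIs. The causes of the reversals were not tested. Of 431 gene values within stage 0 cells 60 gained a call and 20 had the opposite sign, and of 172 against the other cells 65 lost it. Deviations of same-numbered replicates from their genotype means correlated at 0.156 over genes. This is 1 value, since the 2 replicates of a genotype deviate by equal and opposite amounts, and such replicates share only a number. The cycling difference was 6.22 unthinned, 1.32 at 4000 UMIs and 4.44 to 8.70 leaving out a library. The C57BL/6 sums of 58079 and 80824 UMIs limit all of these.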
